A study of Gallus gallus with 21 samples.

Results

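Mesenchymal patterning transcription factors were followed across the chicken feather follicle as a list of 10 genes, TBX18, TBX15, ALX1, ALX4, PRRX1, TWIST1, TWIST2, MSX1, MSX2 and TFAP2C, matched by gene symbol in the deposited tables. The table of experiment 1 held 9 of the 10 genes among its 13815 rows, and the table of experiment 2 held 10 among 23789. ALX1, an aristaless-like factor of craniofacial mesenchyme, had no row in the first table and was listed at 0 in all 9 libraries of the second, so 9 of the 10 genes were tested. The birds were untreated male white leghorn chickens of 1 year, and the tissue was the contour feather follicle. Experiment 1 compared 4 parts of follicles in early growth, with 3 libraries each: the papilla and the sheath, both dermal, and the pulp split into a peripheral and a central part. Experiment 2 compared pulp at early growth, late growth and near rest (2 libraries for each stage) with the apical dermal papilla at rest (3 libraries). The body region of the follicles in each experiment is not stated in the labels. A difference in region between groups therefore could not be told apart from one of part or stage. Whether the libraries of a group derive from different birds is not stated either. The p-values therefore reflect library-to-library spread alone, and that spread may be technical.

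The feather follicle is rebuilt in cycles from a dermal papilla at its base, which induces the epidermis above it and sends mesenchyme, the pulp, into the growing shaft. T-box, homeodomain, basic helix-loop-helix (bHLH) and AP-2 proteins bind DNA in these mesenchymal cells and set positional and lineage identity in limb, face and skin. In mouse skin, TBX18 marks dermal papilla precursors, TBX15 sets the dorsoventral boundary of coat colour, TWIST2 (Dermo1) is a dermal fibroblast factor, and MSX1 and MSX2 respond to bone morphogenetic proteins in mesenchyme and in epithelium. AP-2 factors such as TFAP2C act in epidermis and neural crest as well as in mesenchyme. Sums of epidermal markers are therefore given below, whether or not a factor moved with them.

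Levels are given in TPM, a transcript abundance that corrects for transcript length and scales every library to the same total. TPM keeps no depth, so the depth of the libraries is unknown, and 12569 to 13451 genes reached 1 TPM in a library. Differences are log2 fold changes of TPM + 1, with standard error (SE), from limma fitted across all genes of 1 experiment, and were called at an adjusted p under 0.05. They understate the change of weakly expressed genes. Where groups are said to be separate or without overlap, the share of all genes separated in the same way is not given. With 2 or 3 libraries per group, separation also occurred where no difference was called, as for TWIST1 in late against early growth pulp. These are bulk tissue libraries, in which fewer cells of a type and less RNA per cell cannot be told apart. Fibroblast markers were present in every group, with all 8 at or above 1 TPM and a summed level of 23270 to 31180 TPM in experiment 1. In experiment 2 that sum was 26040 to 26500 TPM in early growth pulp, 38690 to 39460 TPM in late growth, 25090 to 31540 TPM near rest and 13540 to 15090 TPM in the resting papilla. Smooth muscle markers (6 of 6 at or above 1 TPM in each part) summed to 26520 to 28710 TPM in the papilla and 13390 to 17440 TPM in the sheath of experiment 1, against 135.3 to 202.2 TPM in peripheral and 777.3 to 1180 TPM in central pulp. Leukocyte markers ran the other way, at 138.2 to 155.3 TPM in the papilla (4 of 5 at or above 1 TPM) and 227.9 to 238.7 TPM in the sheath, against 656.8 to 758 TPM in peripheral and 845.7 to 978.3 TPM in central pulp (5 of 5 in each). These sums separated both pulp parts from papilla and sheath in experiment 1, whether a factor was higher or lower there. Their part in the differences between pulp and papilla or sheath was not tested. Keratinocyte markers summed to 5220 to 7694 TPM in the dermal sheath against 74.4 to 1011 TPM in the other parts of experiment 1. In experiment 2 they summed to 19340 and 7628 TPM in the 2 near resting libraries, against 246 to 1349 TPM in the other 7. The part that these epidermal transcripts play in the results for the sheath and for near resting pulp was not tested. Endothelial markers summed to 877.2 to 1038 TPM in the sheath and 475 to 563.2 TPM in the papilla. Erythroid markers summed to 3623 to 4116 TPM in the sheath and 1042 to 1269 TPM in the papilla. In experiment 2 the erythroid sum was 2715 to 5445 TPM in the resting papilla and 243.5 to 482.2 TPM near rest. The part of these markers, and of melanocyte markers, was not tested. The 2 near resting libraries differed from each other more than any other replicate pair of experiment 2 did, with an SD of the log2 difference of 0.643 against 0.322 to 0.455 for the other pairs.

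TBX18 separated pulp from sheath and fell through the pulp stages. It was at 23.8, 18.3 and 21.3 TPM in the 3 dermal papilla libraries, at 2.86, 2.99 and 2.18 TPM in the sheath, at 82.6, 87.0 and 76.5 TPM in peripheral pulp and at 80.2, 84.7 and 95.0 TPM in central pulp. Both pulp parts were high and overlapped, the papilla was lower, and the sheath was lowest, with no overlap between these 3 levels. The papilla exceeded the sheath by a log2 fold change of 2.59 ± 0.12 (SE; limma adjusted p = 1e-07). It was below peripheral pulp (-1.91 ± 0.12, adjusted p = 1.2e-07) and below central pulp (-1.99 ± 0.12, adjusted p = 9.9e-08). Peripheral and central pulp differed by -0.08, with a 95% interval of -0.35 to 0.19.

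In experiment 2, TBX18 was at 96.8 and 106.2 TPM in early growth pulp, 7.87 and 7.74 TPM in late growth pulp, 2.32 and 2.23 TPM in near resting pulp and 10.1, 11.2 and 10.1 TPM in the resting apical papilla. Every pair of groups was separate, and early growth pulp stood far above the rest. TBX18 fell from early to late growth by 3.54 ± 0.13 on the log2 scale (adjusted p = 1.1e-06) and from late growth to near rest by 1.43 ± 0.13 (adjusted p = 2.2e-04). It was higher in the resting papilla than in near resting pulp (1.81 ± 0.12, adjusted p = 9.9e-06). Against late growth pulp the difference was small (0.38 ± 0.12, adjusted p = 0.024). That call was lost in 8 of 17 alternatives, among them the fits without replicate 1 or 2 of late growth pulp (0.39 and 0.37) and without replicate 2 or 3 of the resting papilla (0.34 and 0.40), with adjusted p from 0.01 to 0.09 over all 17 and 0.09 (0.40) under the replicate block.

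TBX15, a T-box factor of the same subfamily, had a different order of levels. It was at 188, 192 and 181 TPM in the papilla, at 77.5, 89.9 and 80.8 TPM in the sheath, at 67.8, 86.7 and 98.0 TPM in peripheral pulp and at 67.5, 57.3 and 67.1 TPM in central pulp. The papilla libraries were all above the other 9, which lay close together. The papilla was higher than the sheath (1.17 ± 0.12, adjusted p = 2.8e-05), peripheral pulp (1.16 ± 0.12, adjusted p = 7.4e-06) and central pulp (1.54 ± 0.12, adjusted p = 7.4e-07). Sheath and peripheral pulp differed by -0.01 (95% interval -0.28 to 0.25), a difference whose sign turned under median-of-ratios scaling (0.20) and quantile normalization (0.13). The smaller differences from central pulp were called, but each call was lost in some alternatives. Sheath over central pulp (0.37 ± 0.12, adjusted p = 0.022, range 0.0036 to 0.087 over 20 alternatives) was lost without sheath replicate 2 (0.31) or central pulp replicate 2 (0.29). Peripheral over central pulp (0.38 ± 0.12, adjusted p = 0.04, range 0.0029 to 0.14) was lost in 13 of 20 alternatives. These included leaving out any dermal papilla replicate or sheath replicate 3 (0.38 each), peripheral pulp replicate 2 or 3 (0.35 and 0.26), or any central pulp replicate (0.30 to 0.42). The call was also lost under median-of-ratios scaling (0.28) and quantile normalization (0.32). Dropping the trend and robust settings, or fitting those groups alone, lost it as well (0.38 each).

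Across the stages TBX15 was at 61.4 and 70.5 TPM in early growth pulp, 117 and 125 TPM in late growth pulp, 48.4 and 80.0 TPM near rest and 103, 105 and 98.1 TPM in the resting papilla. Late growth pulp was highest, the resting papilla just below it, and the near resting libraries lay on either side of early growth. TBX15 rose from early to late growth (0.87 ± 0.20, adjusted p = 0.0076, range 1.2e-04 to 0.052 over 17 alternatives), a call lost without early growth replicate 1 (0.77). It fell from late growth to near rest by 0.95 ± 0.20 (adjusted p = 0.0097, range 1.2e-04 to 0.11), a call lost without late growth replicate 2 (-0.90), after quantile normalization (-0.76), with no filter, and in the fit of those groups alone. The resting papilla exceeded early growth pulp (0.62 ± 0.18, adjusted p = 0.017, range 2.4e-04 to 0.11), except with no filter or without early growth replicate 1 (0.53). It exceeded near resting pulp (0.70 ± 0.18, adjusted p = 0.011, range 1.1e-04 to 0.13), except with no filter (adjusted p = 0.052), median-of-ratios scaling (0.41) or quantile normalization (0.58). Near resting and early growth pulp differed by -0.08 (95% interval -0.55 to 0.39). It was 0.28 (adjusted p = 0.045) without near resting replicate 1 and -0.44 (adjusted p = 0.0086) without replicate 2 (range 0.0086 to 1 over 17 alternatives). Its sign also turned without early growth replicate 2 (0.020), with quantile-normalized values (0.13) and with median-of-ratios scaling (0.21). Late growth pulp and the resting papilla differed by -0.24 (adjusted p = 0.29, range 0.0093 to 0.56), which passed when either near resting replicate was left out (-0.24) and in the fit of those groups alone.

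**Figure D1:**
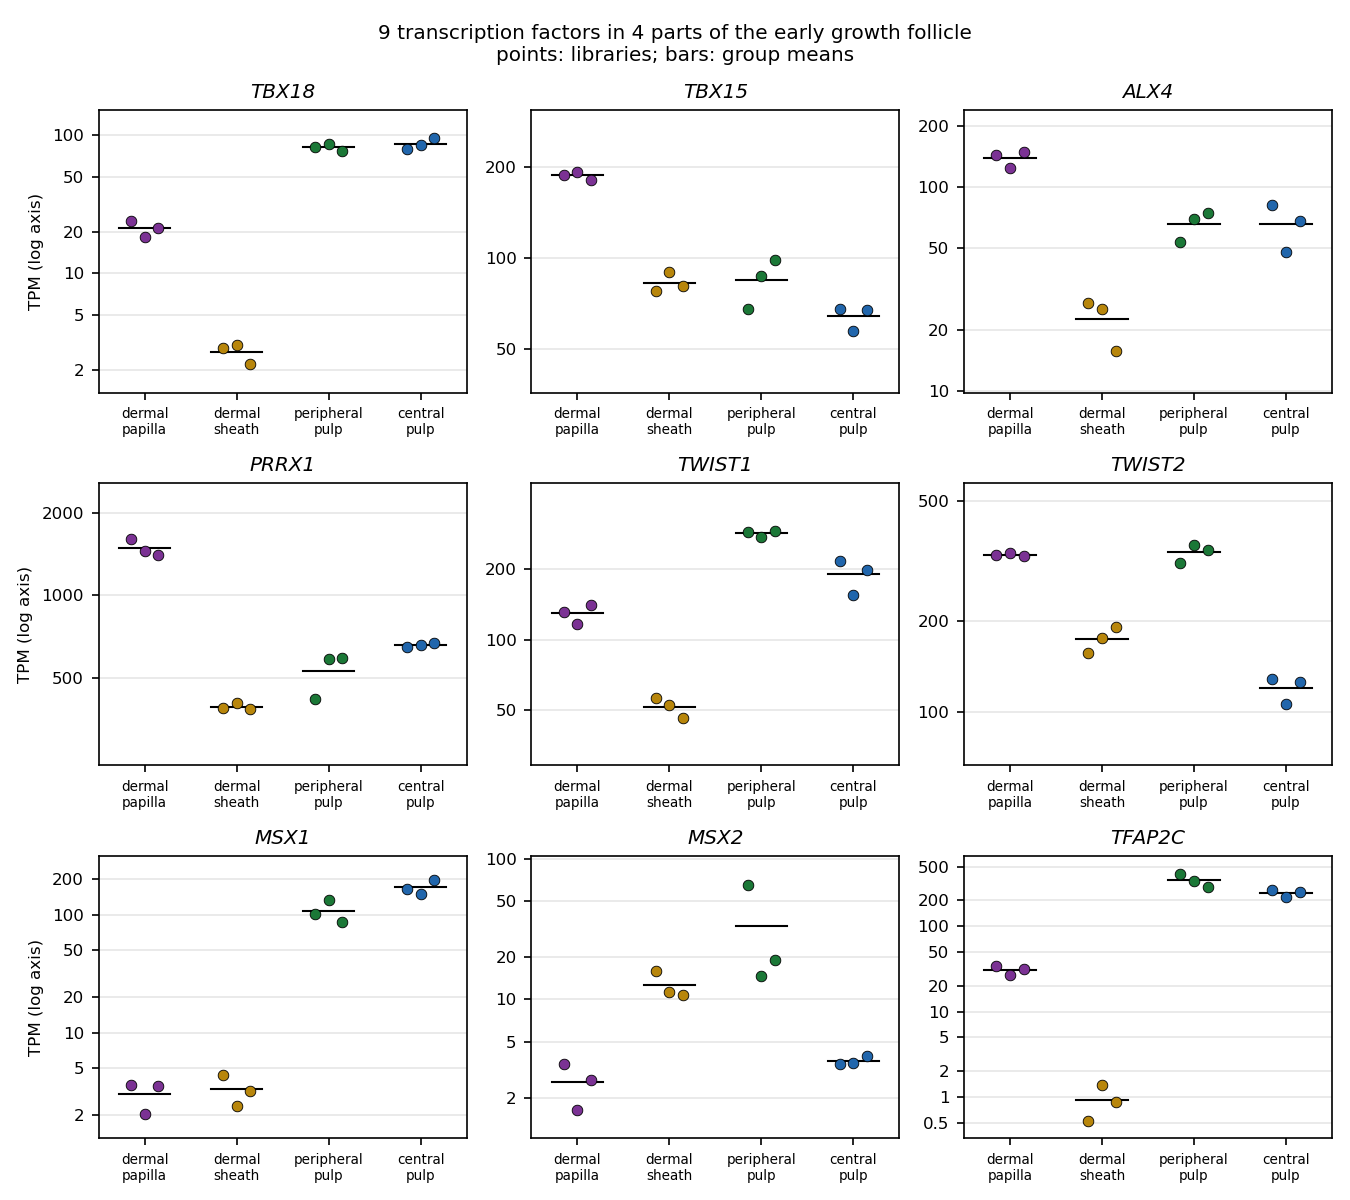
TPM (log axis) of the 9 factors in experiment 1, with 1 panel per gene, 1 point per library and a bar at each group mean (n = 3). TBX15, ALX4 and PRRX1 had their highest mean in the dermal papilla. TBX18 and MSX1 had theirs in central pulp, and TWIST1, TWIST2, MSX2 and TFAP2C in peripheral pulp. TBX18, ALX4, PRRX1, TWIST1 and TFAP2C had their lowest mean in the dermal sheath, and the share of all genes lowest there is not given.

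ALX4, an aristaless-like homeodomain factor of limb and face mesenchyme, was at 144, 124 and 149 TPM in the papilla and at 26.9, 25.4 and 15.7 TPM in the sheath. It was at 53.5, 70.1 and 74.8 TPM in peripheral pulp and at 81.4, 47.8 and 68.2 TPM in central pulp. The papilla was highest and the sheath lowest, without overlap, and both pulp parts lay between them. The papilla exceeded the sheath by 2.60 ± 0.22 (adjusted p = 9.6e-06), peripheral pulp by 1.07 ± 0.22 (adjusted p = 0.0017) and central pulp by 1.10 ± 0.22 (adjusted p = 0.0015). The pulp parts differed by 0.03 (95% interval -0.47 to 0.52), with the sign turned by median-of-ratios scaling (-0.08) and quantile normalization (-0.07).

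In experiment 2 ALX4 was at 40.9 and 48.2 TPM in early growth pulp, 36.9 and 46.3 TPM in late growth, 40.0 and 28.1 TPM near rest and 65.5, 71.9 and 73.8 TPM in the resting papilla. The papilla libraries were above all 6 pulp libraries, which overlapped between neighbouring stages. The papilla exceeded near resting pulp by 1.05 ± 0.17 (adjusted p = 9.1e-04). It exceeded late growth pulp by 0.75 ± 0.17 (adjusted p = 0.0052, range 0.0013 to 0.05 over 17 alternatives), a call lost without late growth replicate 1 (0.59). It exceeded early growth pulp by 0.65 ± 0.17 (adjusted p = 0.0086, range 0.0016 to 0.072), a call lost without early growth replicate 1 (0.53). Between pulp stages no ALX4 difference was called in the fit of all libraries. The intervals were -0.52 to 0.32 for late against early growth, -0.71 to 0.12 for near rest against late growth and -0.81 to 0.02 for near rest against early growth. Without near resting replicate 1 the last 2 differences passed, at -0.54 (adjusted p = 0.037, range 0.037 to 0.86) and -0.64 (adjusted p = 0.012, range 0.012 to 0.57).

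PRRX1, the paired-related homeobox factor of limb bud and dermal fibroblasts, was the most abundant of the 9 in every group. Its levels were 1606, 1458 and 1404 TPM in the papilla, 388, 406 and 384 TPM in the sheath, 418, 588 and 589 TPM in peripheral pulp and 649, 658 and 671 TPM in central pulp. In the papilla its mean was above 99.4% of the genes that reached 1 TPM there. All 6 pairs of parts were separate by library values. The papilla exceeded the sheath (1.92 ± 0.11, adjusted p = 6e-07), peripheral pulp (1.50 ± 0.11, adjusted p = 5.3e-07) and central pulp (1.17 ± 0.11, adjusted p = 4.4e-06), and the sheath was below central pulp (-0.75 ± 0.11, adjusted p = 1.6e-04). The sheath was also below peripheral pulp (-0.42 ± 0.11, adjusted p = 0.0078, range 2.9e-05 to 0.14 over 20 alternatives), a call lost under median-of-ratios scaling (-0.21). Peripheral against central pulp stood at -0.33 ± 0.11 (adjusted p = 0.056, range 0.016 to 0.15). That difference passed under median-of-ratios scaling (-0.43) and quantile normalization (-0.38) and without peripheral pulp replicate 2 (-0.41) or 3 (-0.41).

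Through the pulp stages PRRX1 rose and then fell, at 429.7 and 430.5 TPM in early growth, 1622 and 1589 TPM in late growth and 529 and 788 TPM near rest. The resting papilla held 1488, 1562 and 1515 TPM, close to late growth pulp. The fibroblast marker sum was highest in late growth pulp as well, and lowest in the resting papilla, where PRRX1 was high, and its part in the PRRX1 values was not tested. The rise from early to late growth was 1.90 ± 0.16 (adjusted p = 4.6e-05), and from late growth to near rest PRRX1 fell by 1.31 ± 0.16 (adjusted p = 7.7e-04). The resting papilla exceeded near resting pulp (1.24 ± 0.14, adjusted p = 1.9e-04) and early growth pulp (1.82 ± 0.14, adjusted p = 1.7e-05), and its difference from late growth pulp was -0.08 (95% interval -0.41 to 0.26). Near resting pulp was above early growth pulp (0.59 ± 0.16, adjusted p = 0.014, range 2.5e-05 to 0.1 over 17 alternatives). This last call was lost without early growth replicate 1 or 2 (0.58 and 0.59), with no filter, and in the fit of those groups alone.

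**Figure D2:**
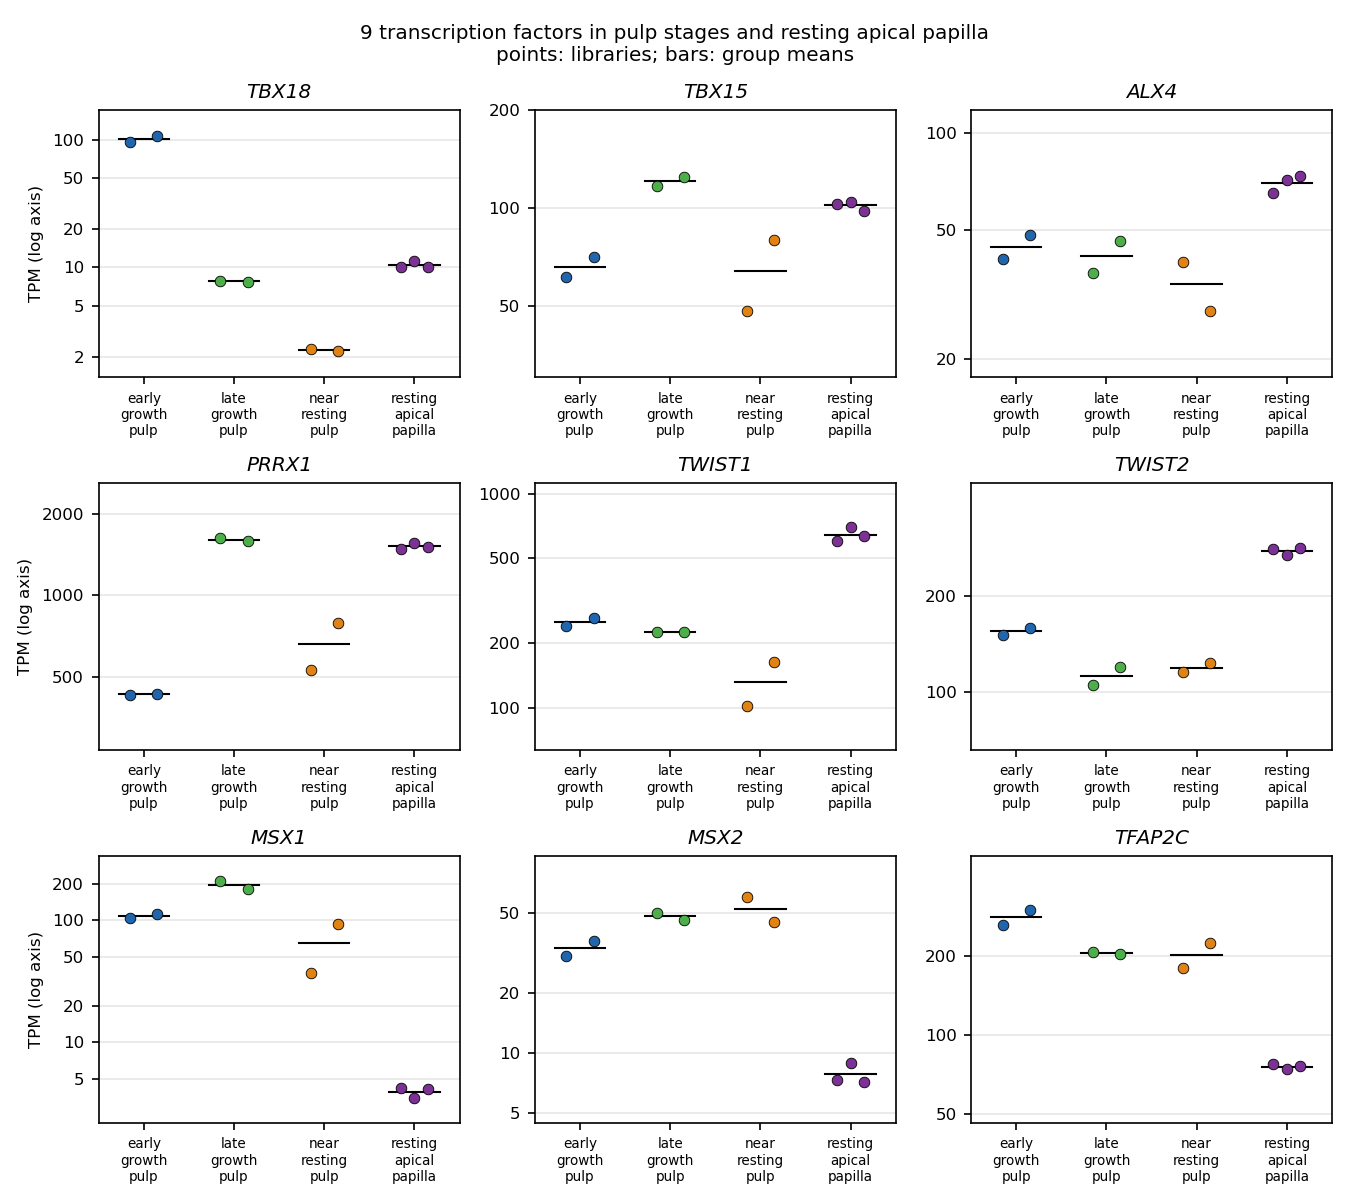
TPM (log axis) of the 9 factors in experiment 2, with 1 panel per gene, 1 point per library and a bar at each group mean (n = 2 for each pulp stage, n = 3 for the resting apical papilla). TBX18 stepped down from about 101 TPM in early growth pulp to 2.27 TPM near rest, PRRX1 peaked at late growth among the pulp stages, and MSX1, MSX2 and TFAP2C were lowest in the resting papilla.

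TWIST1 and TWIST2 are bHLH factors of dermal and cranial mesenchyme that pair with E proteins. TWIST1 was at 132, 116 and 141 TPM in the papilla, 56.2, 52.2 and 46.3 TPM in the sheath, 289, 275 and 292 TPM in peripheral pulp and 217, 155 and 198 TPM in central pulp. The order was peripheral pulp, central pulp, papilla and sheath, with no overlap between any pair. All 6 pairwise differences were called, in comparisons that called 25.2% to 59.4% of all genes. The smallest were peripheral over central pulp (0.60 ± 0.12, adjusted p = 0.0042) and papilla below central pulp (-0.54 ± 0.12, adjusted p = 0.0027). The largest was sheath below peripheral pulp (-2.45 ± 0.12, adjusted p = 1.3e-08).

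TWIST2 was at 332, 337 and 330.2 TPM in the papilla, 157, 176 and 192 TPM in the sheath, 313, 359 and 346 TPM in peripheral pulp and 129, 106 and 126 TPM in central pulp. Papilla and peripheral pulp shared the high level, and central pulp was lowest. Papilla and peripheral pulp differed by -0.03 (95% interval -0.23 to 0.18), and by 0.12 under median-of-ratios scaling. Peripheral exceeded central pulp by 1.49 ± 0.09 (adjusted p = 1.6e-06), and the sheath exceeded central pulp by 0.54 ± 0.09 (adjusted p = 4.4e-04). The papilla exceeded the sheath by 0.93 ± 0.09 (adjusted p = 2.4e-05).

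Both TWIST genes were highest in the resting apical papilla in experiment 2. TWIST1 was at 597, 699 and 635 TPM there, against 239 and 262 TPM in early growth pulp, 225 and 227 TPM in late growth and 102 and 162 TPM near rest. TWIST2 was at 282, 271 and 284 TPM there, against 152 and 159 TPM in early growth, 105 and 119 TPM in late growth and 116 and 123 TPM near rest. The papilla libraries were above every pulp library for both genes. TWIST1 exceeded near resting pulp by 2.31 ± 0.18 (adjusted p = 2.1e-05), late growth by 1.50 ± 0.18 (adjusted p = 1.9e-04) and early growth by 1.35 ± 0.18 (adjusted p = 2.5e-04). For TWIST2 these differences were 1.22 ± 0.08 (adjusted p = 9.3e-06), 1.31 ± 0.08 (adjusted p = 6.3e-06) and 0.84 ± 0.08 (adjusted p = 3.9e-05).

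Among the pulp stages TWIST2 fell from early to late growth by 0.47 ± 0.09 (adjusted p = 0.0024), whereas the TWIST1 difference was -0.15 (95% interval -0.60 to 0.30). TWIST1 was lower near rest than at early growth (-0.96 ± 0.19, adjusted p = 0.0036). It was lower near rest than at late growth (-0.81 ± 0.19, adjusted p = 0.016, range 2.3e-04 to 0.13 over 17 alternatives), a call lost in 6 of the 17. Those included the fits without late growth replicate 1 or 2 (-0.81 each), median-of-ratios scaling (-0.62) and quantile normalization (-0.60). TWIST2 was lower near rest than at early growth (-0.38 ± 0.09, adjusted p = 0.0064, range 0.0058 to 0.49), a call lost under median-of-ratios scaling (-0.08), under quantile normalization (-0.18) and in the fit of those groups alone. Near rest and late growth differed for TWIST2 by 0.09 (95% interval -0.11 to 0.29).

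MSX1, a homeodomain repressor of growing mesenchyme, was high in pulp and low in papilla and sheath, the parts in which smooth muscle markers were high and leukocyte markers low. The papilla held 3.57, 2.03 and 3.50 TPM and the sheath 4.36, 2.39 and 3.18 TPM, against 101, 133 and 86.4 TPM in peripheral pulp and 165, 151 and 196 TPM in central pulp. Every pulp library was above every papilla and sheath library. The papilla was below peripheral pulp by -4.74 ± 0.22 (adjusted p = 9.1e-09) and below central pulp by -5.43 ± 0.22 (adjusted p = 4e-09), and the sheath differed from pulp by -4.65 ± 0.22 and -5.33 ± 0.22. Papilla and sheath differed by -0.09 (95% interval -0.57 to 0.38), and by 0.10 after quantile normalization. Central pulp was above peripheral pulp (-0.68 ± 0.22 for peripheral minus central, adjusted p = 0.039, range 0.023 to 0.13 over 20 alternatives), a call lost in 8 of the 20. It was lost without sheath replicate 3 (-0.68), peripheral pulp replicate 1 or 3 (-0.65 and -0.54) or any central pulp replicate (-0.58 to -0.77), with a pseudocount of 0.1 (-0.69), and with no trend and no robust setting (-0.68).

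In experiment 2 MSX1 was at 105 and 113 TPM in early growth pulp, 211 and 182 TPM in late growth, 37.3 and 94.3 TPM near rest and 4.20, 3.51 and 4.12 TPM in the resting papilla. The papilla was again far below all pulp libraries, and the near resting libraries were wide apart. The papilla was below near resting pulp by -3.61 ± 0.32 (adjusted p = 4.5e-05), late growth pulp by -5.32 ± 0.32 (adjusted p = 6.6e-06) and early growth pulp by -4.48 ± 0.32 (adjusted p = 1e-05). From late growth to near rest MSX1 fell by 1.70 ± 0.35 (adjusted p = 0.0085, range 3.7e-05 to 0.11 over 17 alternatives), a call lost without late growth replicate 1 (-1.60), with no filter, and in the fit of those groups alone. Late over early growth was 0.84 ± 0.35 (adjusted p = 0.078, range 5.7e-04 to 0.25) and passed without near resting replicate 1 or 2 (0.84) or in the fit of those groups alone. Near rest against early growth was -0.87 ± 0.35 (adjusted p = 0.067, range 1.3e-04 to 0.25) and passed without near resting replicate 2 (-1.52), whereas it was -0.21 (adjusted p = 0.21) without replicate 1. Leaving out near resting replicate 1 or 2 also moved the fall from late growth, to -1.04 or -2.36, and the resting papilla against near rest, to -4.27 or -2.96, and these calls were kept. The near resting library with less MSX1 (replicate 1) was the one with the higher keratinocyte sum. This was not particular to MSX1. TBX15, PRRX1, TWIST1, TWIST2 and TFAP2C were also lower in replicate 1 than in replicate 2, and TBX18, ALX4 and MSX2 were higher. The part of the keratinocyte transcripts in these values was not tested.

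MSX2, its close relative, was low in papilla and central pulp and higher in sheath and peripheral pulp. It was at 3.47, 1.64 and 2.69 TPM in the papilla, 16.0, 11.3 and 10.7 TPM in the sheath, 65.3, 14.7 and 19.2 TPM in peripheral pulp and 3.45, 3.51 and 3.97 TPM in central pulp. Peripheral pulp replicate 1 stood apart, and without it the group would still lie above central pulp. Keratinocyte markers summed to 1011 TPM in that library and to 376 and 453 TPM in the other peripheral pulp libraries. Peripheral exceeded central pulp by 2.57 ± 0.43 (adjusted p = 0.0015), and by 1.94 without peripheral pulp replicate 1 (adjusted p = 3.4e-04). The papilla was below peripheral pulp by -2.97 ± 0.43 (adjusted p = 1.2e-04), and by -2.34 without that library (adjusted p = 1.6e-05). The sheath exceeded the papilla (-1.94 ± 0.43 for papilla minus sheath, adjusted p = 0.0046) and central pulp (1.54 ± 0.43, adjusted p = 0.0099). Keratinocyte markers summed to 215.8 to 392 TPM in the papilla, 5220 to 7694 TPM in the sheath and 74.4 to 125 TPM in central pulp, so the sheath exceeded peripheral pulp in these markers while its mean MSX2 level was the lower of these parts. Their part in the MSX2 values was not tested. Sheath against peripheral pulp was -1.03 ± 0.43 (adjusted p = 0.059, range 0.014 to 0.19 over 20 alternatives). It was -0.40 (adjusted p = 0.19) without peripheral pulp replicate 1. It passed without peripheral pulp replicate 2 (-1.44) or 3 (-1.26) and under the replicate block (-1.03, adjusted p = 0.03). The papilla and central pulp differed by -0.40 (95% interval -1.35 to 0.55), and by 0.01 after quantile normalization.

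In experiment 2 MSX2 was at 30.6 and 36.2 TPM in early growth pulp, 50.2 and 46.3 TPM in late growth, 60.2 and 45.1 TPM near rest and 7.31, 8.96 and 7.18 TPM in the resting papilla. Pulp of every stage was above the papilla, and late growth overlapped near rest. The papilla was below near resting pulp by -2.60 ± 0.16 (adjusted p = 6.5e-06), late growth by -2.49 ± 0.16 (adjusted p = 7.8e-06) and early growth by -1.97 ± 0.16 (adjusted p = 1.6e-05). MSX2 rose from early to late growth (0.52 ± 0.17, adjusted p = 0.033, range 0.0071 to 0.17 over 17 alternatives), a call lost without early growth replicate 1 (0.40) or late growth replicate 1 (0.46) or 2 (0.58), with no filter, and under the replicate block (adjusted p = 0.075). Near rest over early growth (0.63 ± 0.17, adjusted p = 0.014, range 0.0011 to 0.086) was lost without early growth replicate 1 (0.51) or near resting replicate 1 (0.43), with no filter, and in the fit of those groups alone. Near rest and late growth differed by 0.11 (95% interval -0.28 to 0.51). Keratinocyte markers were lowest among the pulp stages in late growth, at 280 and 284 TPM, where MSX2 was above early growth. They were highest near rest, at 19340 and 7628 TPM, where mean MSX2 was also highest (52.7 TPM). The near resting library with more of them, replicate 1, held more MSX2. Their part in the MSX2 values of experiment 2 was not tested.

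TFAP2C, the AP-2 gamma factor, had the widest range of the 9 genes over the follicle parts. It was at 33.9, 26.7 and 31.1 TPM in the papilla, 0.523, 1.37 and 0.869 TPM in the sheath, 414, 335 and 290.3 TPM in peripheral pulp and 267, 217 and 254 TPM in central pulp. Pulp was high, the papilla intermediate and the sheath near 1 TPM, and all pairs of parts were separate. The highest mean, in peripheral pulp, was 376-fold the lowest, in the sheath. The sheath was below peripheral pulp by -7.51 ± 0.17 (adjusted p = 5.9e-11), below central pulp by -7.02 ± 0.17 (adjusted p = 8.5e-11), and the papilla exceeded the sheath by 4.06 ± 0.17 (adjusted p = 4.1e-08). The sheath held the least TFAP2C and the highest keratinocyte marker sum of experiment 1. Melanocyte markers summed to 67.7 to 185.9 TPM in peripheral pulp and 0.464 to 6.32 TPM in central pulp. Their sum was 2.68 to 4.54 TPM in the papilla and 0 to 0.064 TPM in the sheath. The part of either marker list in the TFAP2C values was not tested. The papilla was below peripheral pulp (-3.45 ± 0.17, adjusted p = 1.6e-08) and central pulp (-2.97 ± 0.17, adjusted p = 5.6e-08). Peripheral over central pulp was 0.48 ± 0.17 (adjusted p = 0.059, range 0.036 to 0.2 over 20 alternatives) and passed without sheath replicate 1 or 2 (0.48 each) or peripheral pulp replicate 3 (0.60).

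Across the stages TFAP2C changed less. It was at 263 and 299.8 TPM in early growth pulp, 208 and 204 TPM in late growth, 181 and 223 TPM near rest and 77.3, 74.3 and 76.1 TPM in the resting papilla. The papilla was below all pulp libraries, by -1.39 ± 0.10 against near rest (adjusted p = 1.7e-05), -1.43 ± 0.10 against late growth (adjusted p = 1.5e-05) and -1.88 ± 0.10 against early growth (adjusted p = 2.5e-06). From early to late growth TFAP2C fell by 0.45 ± 0.11 (adjusted p = 0.011, range 0.0013 to 0.071 over 17 alternatives), a call lost without early growth replicate 2 (-0.35) or late growth replicate 2 (-0.43) or under median-of-ratios scaling (-0.34). Near rest was below early growth (-0.48 ± 0.11, adjusted p = 0.007, range 8.1e-04 to 0.28), a call lost under median-of-ratios scaling (-0.19) and quantile normalization (-0.35) and in the fit of those groups alone. Near rest and late growth differed by -0.04 (95% interval -0.30 to 0.22), or 0.15 under either of those scalings.

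**Figure D3:**
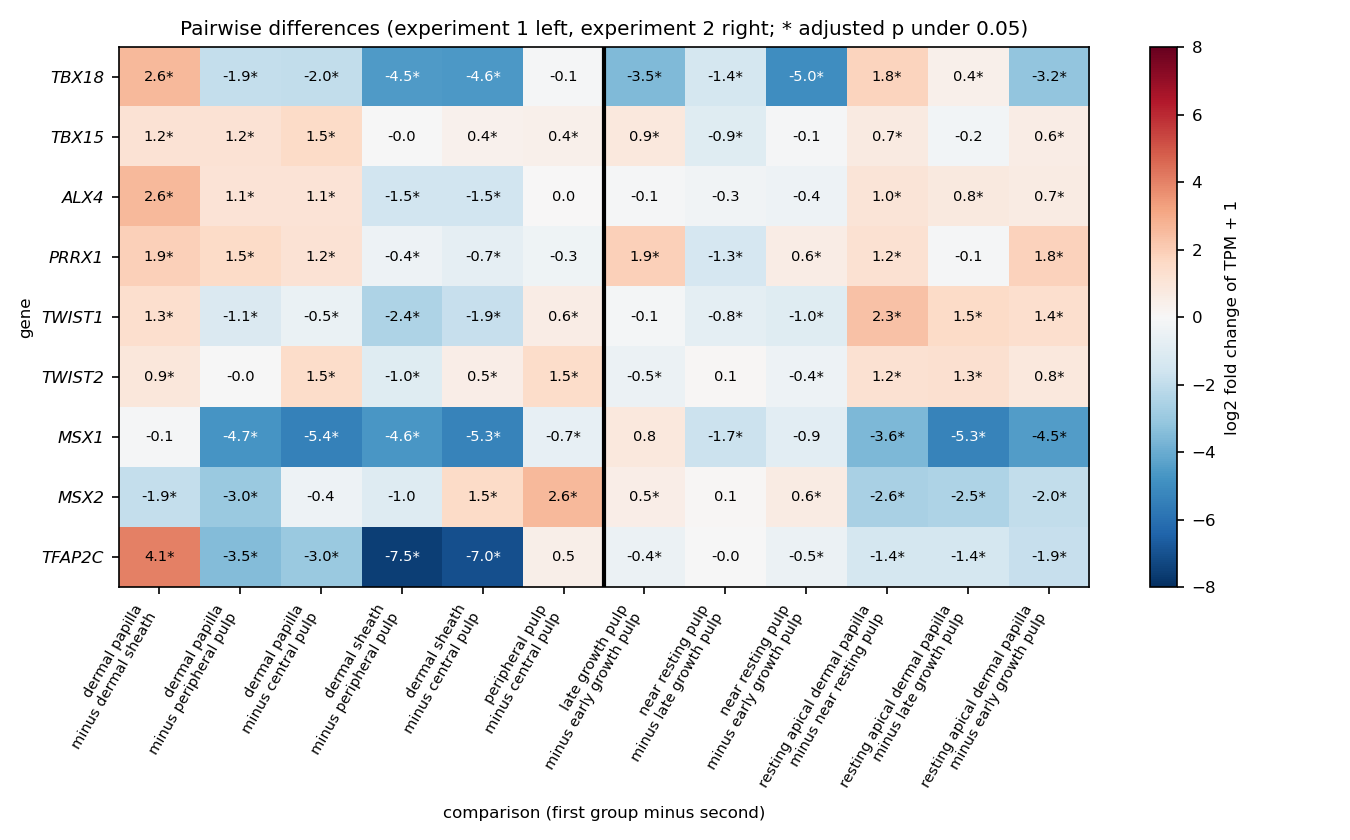
Log2 fold changes of TPM + 1 for the 9 factors (rows) in the 12 pairwise comparisons (columns, first group minus second), with an asterisk where the adjusted p was under 0.05. The most negative values are those of TFAP2C in sheath against peripheral pulp (-7.51) and sheath against central pulp (-7.02).

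Counted over the comparisons of experiment 1, which share libraries, the F test of limma called all 9 tested factors, and 76.3% of all 13804 genes tested. Papilla against sheath called 8 of the 9 (37.7% of all genes), 7 higher (21.7%) and 1 lower (16.0%), with a median log2 fold change of 1.31 against 0.06 over all genes. Papilla against peripheral pulp called 8 (57.3%), 3 higher (21.7%) and 5 lower (35.6%). Papilla against central pulp also called 8 (52.9%), 4 higher (23.7%) and 4 lower (29.2%). Sheath against peripheral pulp called 7 (59.4%), 0 higher (20.2%) and 7 lower (39.1%), with a median of -1.53 against -0.21. Sheath against central pulp called 9 (56.5%), 3 higher (22.9%) and 6 lower (33.6%). Peripheral against central pulp called 5 (25.2%), 4 higher (15.6%) and 1 lower (9.51%), and between 3 and 6 when 1 library was left out.

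For all genes, the split of higher and lower calls moved with the scaling. Under median-of-ratios scaling it was 27.2% and 28.4% in papilla against peripheral pulp, 27.6% and 28.3% in sheath against peripheral pulp, and 9.91% and 13.2% in peripheral against central pulp. After quantile normalization these splits were 26.4% and 28.4%, 25.9% and 30.2%, and 11.6% and 12.7%. The factors split 3 and 5, 0 and 6, and 3 and 2 under the first of these scalings, and 3 and 5, 0 and 7, and 3 and 2 under the second.

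In experiment 2 the F test again called all 9 tested factors, and 85.0% of all 14915 genes tested. Late against early growth pulp called 6 (53.3%), 3 higher (22.4%) and 3 lower (30.8%). Near rest against late growth called 5 (31.1%), 0 higher (8.77%) and 5 lower (22.3%). Near rest against early growth called 6 (55.9%), 2 higher (18.7%) and 4 lower (37.3%). The 5 factors lower near rest than at late growth were TBX18, TBX15, PRRX1, TWIST1 and MSX1. The resting papilla differed from near resting pulp in 9 (62.5%), 6 higher (40.9%) and 3 lower (21.6%), and these 3 were MSX1, MSX2 and TFAP2C. It differed from late growth pulp in 7 (58.3%), 4 higher (32.5%) and 3 lower (25.8%). From early growth pulp it differed in 9 (65.7%), 5 higher (32.1%) and 4 lower (33.6%).

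Here too the split over all genes moved with scaling. Under median-of-ratios scaling it was 13.7% higher and 13.6% lower for near rest against late growth, 28.6% and 26.9% for near rest against early growth, and 29.7% and 30.4% for the resting papilla against near rest. Quantile normalization gave 11.6% and 15.4%, 25.4% and 30.5%, and 35.3% and 26.6%. The factors split 0 and 4, 2 and 2, and 5 and 3 under the first, and 0 and 3, 2 and 2, and 5 and 3 under the second.

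Related factors changed their balance from part to part. Each of the paired genes was called by the F test in both experiments, as were 76.3% and 85.0% of all genes. The share of other gene pairs whose ratio differed is not given. The ratio tests therefore cannot be read as particular to related factors. The log2 ratio of TPM + 1 within each library was used, which compares levels per transcript length. TWIST2 exceeded TWIST1 in all 9 libraries of papilla, sheath and peripheral pulp, and TWIST1 exceeded TWIST2 in all 3 of central pulp. The mean log2 ratio of TWIST1 over TWIST2 was -1.36 ± 0.16 (SD, n = 3) in the papilla, -1.74 ± 0.28 in the sheath, -0.25 ± 0.13 in peripheral pulp and 0.65 ± 0.10 in central pulp. It differed between the parts (exact permutation test of the between-group sum of squares over all assignments of libraries to groups, p = 1.3e-04, adjusted p = 2.6e-04 over 6 tests). In experiment 2 TWIST1 was the higher of the pair in 8 of 9 libraries, and near resting replicate 1 was the exception (-0.19). The ratio was 0.69 ± 0.05 (SD, n = 2) at early growth, 1.01 ± 0.12 at late growth, 0.10 ± 0.41 near rest and between 1.08 and 1.36 in the 3 libraries of the resting papilla (exact permutation p = 0.0032, adjusted p = 0.0038).

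MSX1 over MSX2 ran from -1.67 ± 0.19 (SD, n = 3) in the sheath through 0.17 ± 0.13 in the papilla and 1.94 ± 1.25 in peripheral pulp to 5.20 ± 0.12 in central pulp. There the mean of MSX1 was 46.8-fold that of MSX2. The ratio differed between parts (exact permutation p = 6.5e-05, the smallest these libraries allow, adjusted p = 2.6e-04). In experiment 2 it was 1.68 ± 0.09 at early growth, 2.00 ± 0.07 at late growth, 0.18 ± 1.22 near rest (n = 2 each) and -0.83 ± 0.27 in the resting papilla (n = 3), where MSX2 exceeded MSX1 in 3 of 3 libraries (exact permutation p = 0.026, adjusted p = 0.026).

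TBX18 over TBX15 was -3.09 ± 0.20 (SD, n = 3) in the papilla and -4.51 ± 0.17 in the sheath, but -0.02 ± 0.32 in peripheral and 0.43 ± 0.16 in central pulp (exact permutation p = 1.3e-04, adjusted p = 2.6e-04). With the pulp stages the balance turned from 0.62 ± 0.05 at early growth to -3.79 ± 0.08 at late growth and -4.27 ± 0.53 near rest (n = 2 each). It was -3.17 ± 0.06 in the resting papilla (n = 3; exact permutation p = 7.9e-04, the smallest these libraries allow, adjusted p = 0.0012). ALX1 and ALX4 could not be compared in this way, since ALX1 was listed at 0 or had no row.

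**Figure D4:**
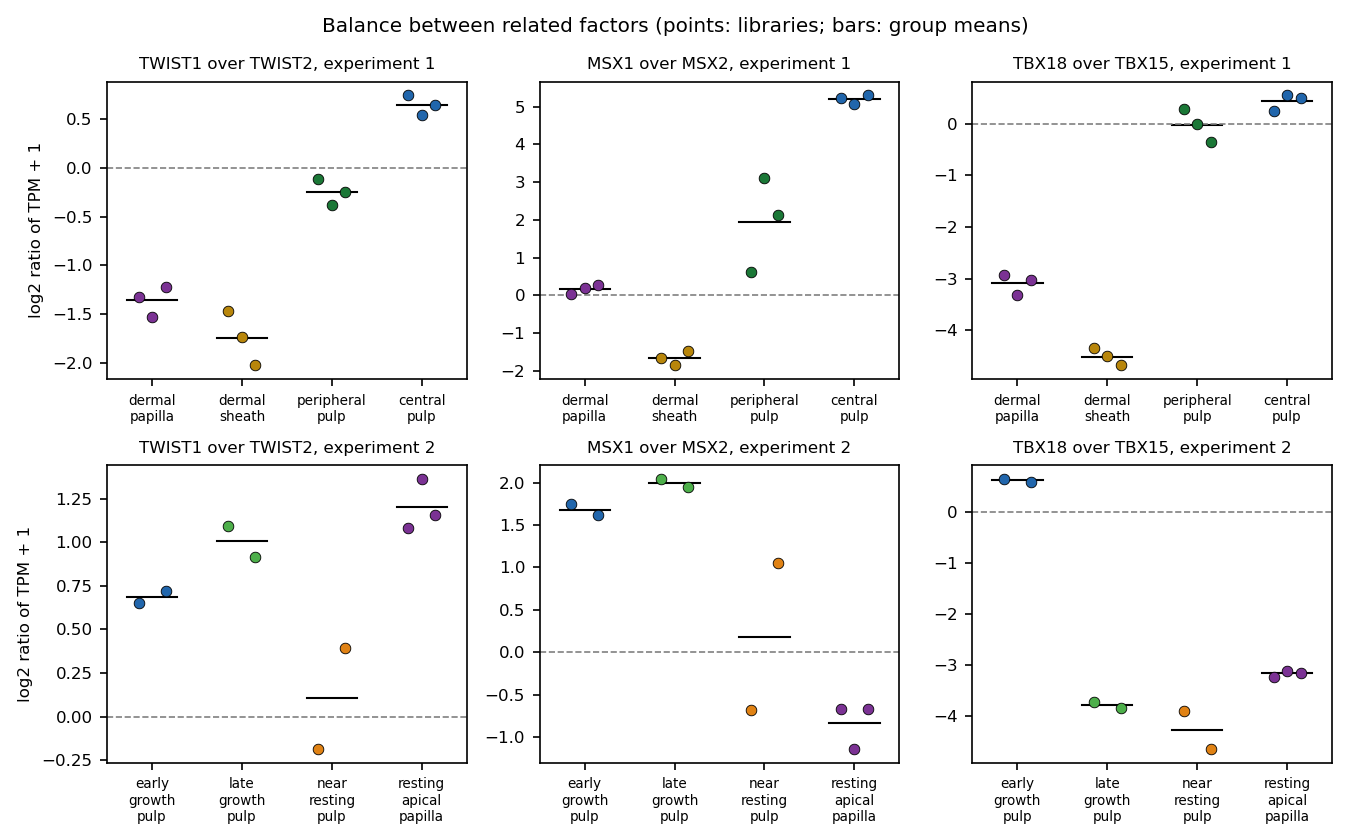
Log2 ratio of TPM + 1 between related factors in each library (points) with group means (bars), for experiment 1 (top) and experiment 2 (bottom). The dashed line marks equal levels. Central pulp is the only part of experiment 1 in which TWIST1 exceeded TWIST2, and early growth pulp the only group of experiment 2 in which TBX18 exceeded TBX15.

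Early growth pulp was sampled in both experiments, as peripheral and central pulp in the first and as pulp in the second. The dermal papilla was sampled in growth in the first, and the apical dermal papilla at rest in the second. Phase, dissected part and experiment therefore cannot be told apart between these papilla samples. The tables were normalized separately, so the values are set side by side without a test. TBX18 had a mean of 82.0 and 86.6 TPM in peripheral and central pulp and 101.5 TPM in early growth pulp. For TWIST2 the means were 339 and 120.4 TPM in the pulp parts and 155 TPM in early growth pulp. TFAP2C stood at 346 and 246 TPM in the parts and at 282 TPM in early growth pulp. ALX4 and PRRX1 were lower in early growth pulp than in either part, at 44.5 against 66.1 and 65.8 TPM and at 430.1 against 532 and 659 TPM. The means in the parts and in early growth pulp were 84.2, 64.0 and 65.9 TPM for TBX15, 285.4, 190.0 and 251 TPM for TWIST1, 107, 171 and 109 TPM for MSX1 and 33.0, 3.65 and 33.4 TPM for MSX2. The papilla of growing follicles and the resting apical papilla held 1489.5 and 1522 TPM of PRRX1, 139 and 70.4 TPM of ALX4, 187 and 102 TPM of TBX15 and 21.2 and 10.5 TPM of TBX18. For TWIST1 these levels were 129.7 and 644 TPM, and for TFAP2C 30.6 and 75.9 TPM. TWIST2 stood at 333 and 279 TPM, MSX1 at 3.03 and 3.95 TPM and MSX2 at 2.60 and 7.82 TPM. Smooth muscle markers summed to 134.5 to 140.2 TPM in the resting apical papilla, far below the growing papilla. The part of this difference in the values above was not tested.

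A list of 105 other mesenchymal patterning factors and bHLH partners was examined in the same fits, of which 72 were tested in experiment 1 and 77 in experiment 2. In papilla against sheath 24 of the 72 were higher, 17 lower and 31 not called. The shares of all genes called in each comparison are those given above for the 9 factors. Among called genes of at least 5 TPM in the higher group, the largest increases were those of SHOX2, a limb homeodomain factor (38.7 ± 4.02 against 4.43 ± 1.50 TPM (SD, n = 3), log2 fold change 2.90 ± 0.22), and RUNX3 (62.0 ± 8.71 against 9.27 ± 4.00 TPM, 2.69 ± 0.25). The largest decreases were those of the tendon homeodomain factor MKX (0.190 ± 0.061 against 14.8 ± 0.713 TPM, -3.73 ± 0.16) and of IRX5 (0.682 ± 0.489 against 14.4 ± 4.23 TPM, -3.19 ± 0.27). In papilla against central pulp 24 were higher, 20 lower and 28 not called. The tendon bHLH factor scleraxis, SCX, reached 81.6 ± 7.16 TPM in the papilla, while all 6 pulp libraries of experiment 1 list it at 0. FOXF1 was at 20.9 ± 1.17 TPM in the papilla and 0.770 ± 0.676 TPM in central pulp (3.72 ± 0.33). Lower in the papilla were EYA2, a transcriptional cofactor (0.179 ± 0.081 against 70.9 ± 7.29 TPM, -5.93 ± 0.26), and TBX4, a T-box factor of the hindlimb (0.931 ± 0.610 against 36.9 ± 3.67 TPM, -4.34 ± 0.22).

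In papilla against peripheral pulp 24 of the 72 were higher and 28 lower, in sheath against peripheral pulp 21 and 35, and in sheath against central pulp 26 and 31. The first of these splits was 26 and 25 under median-of-ratios scaling and 27 and 23 after quantile normalization, and the second 23 and 32, and 23 and 33. Between peripheral and central pulp 16 were higher, 12 lower and 44 not called. LMX1B, a dorsal limb factor, and TFAP2B, an AP-2 relative of TFAP2C, were higher in peripheral pulp, at 6.90 ± 5.25 and 7.05 ± 4.66 TPM against 0.376 ± 0.345 and 0.469 ± 0.406 TPM (2.34 ± 0.42 and 2.32 ± 0.48). PAX9 and the cartilage factor SOX9 were higher in central pulp, at 11.4 ± 1.49 and 19.2 ± 6.68 TPM against 2.66 ± 0.860 and 4.94 ± 1.14 TPM (-1.78 ± 0.22 and -1.73 ± 0.28).

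Late against early growth pulp had 28 of the 77 higher and 27 lower, near rest against late growth 9 and 30, the resting papilla against late growth 28 and 24, and against early growth 32 and 34. From early growth to near rest 16 rose, 31 fell and 30 were not called. EYA1 and DLX6 rose, from 0.0062 and 0.190 TPM to 13.1 and 16.1 TPM (3.80 ± 0.19 and 3.76 ± 0.31). HAND2, a limb and branchial bHLH factor that can pair with TWIST1, fell from 135 to 0.785 TPM (-6.41 ± 0.43), and EYA2 from 74.0 to 0.036 TPM (-6.18 ± 0.38). In the resting papilla against near resting pulp 36 were higher, 15 lower and 26 not called. Median-of-ratios scaling gave 21 and 29 for near rest against early growth and 29 and 18 for the resting papilla against near rest, and quantile normalization gave 20 and 30, and 33 and 15. MEIS1, a HOX cofactor, was at 81.6 ± 10.2 TPM (n = 3) against 5.70 ± 0.507 TPM (n = 2), a log2 fold change of 3.62 ± 0.13. BNC1, a factor of basal keratinocytes, and DLX3, a factor of epidermal differentiation, were lower in the papilla (-4.38 ± 0.70 and -3.66 ± 0.24). BNC1 stood at 11.1 and 91.7 TPM in the near resting libraries, whose keratinocyte sums were 7628 and 19340 TPM in the same order, and its level was 85.8 and 86.2 TPM in early growth pulp. Every fold change of a named factor in the other list had a limma adjusted p of 0.0047 or less.

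**Figure D5:**
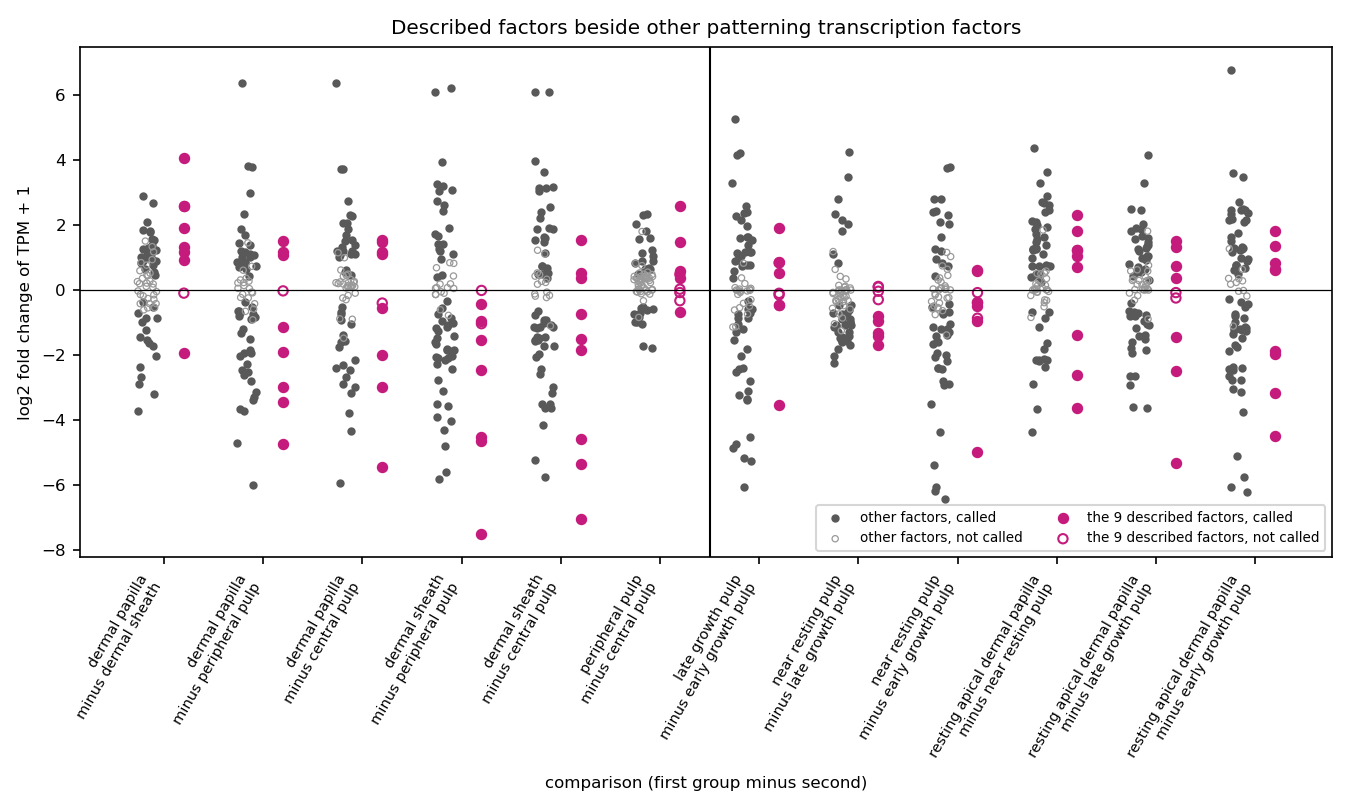
Log2 fold changes of TPM + 1 in the 12 comparisons for the 9 described factors (magenta) and the 72 or 77 other patterning factors tested (grey), filled where the adjusted p was under 0.05. In sheath against peripheral pulp 7 of the 9 described factors were called, each of them below 0, where 59.4% of all genes were called and 39.1% were lower.

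For each factor, the most similar patterns over the 12 libraries of experiment 1 were sought among 8871 other genes with a symbol and a mean of at least 10 TPM in some part. Likeness was the root mean square difference of log2(TPM + 1) after centring each gene, so for 1 factor a smaller value means a closer pattern. The distance was not divided by the spread of the factor, which ran from an SD of 0.62 (TBX15) to 3.13 (TFAP2C) over these libraries. A factor that varies little has small distances for that reason, so distances of different factors cannot be ranked against each other. RDH11, a retinol dehydrogenase, was nearest to TBX18 (0.237) and FERMT2, an integrin adaptor, to TBX15 (0.0889). SHOX2 (0.339) and the bHLH gene ATOH8 (0.35) were nearest to ALX4, SCYL3 (0.169) and the serpin SERPINI1 (0.224) to PRRX1, and the ephrin EFNB1 (0.183) to TWIST1. FRMD4A (0.243) and ASPHD2 (0.244) were nearest to TWIST2. MSX1 was followed most closely by RTN1 (0.392) and TENM2 (0.421), MSX2 by the POU factor POU3F1 (0.43) and MAT1A (0.489), and TFAP2C by FAIM2 (0.46) and the fibrillin FBN3 (0.651). The second genes for TBX18 and TWIST1 were NELL2 (0.334) and the miRNA gene row gga-mir-6613 (0.201). Over the 9 libraries of experiment 2 these distances were larger for every pair given here, from 0.3 for TWIST2 with FRMD4A to 3.13 for TBX18 with NELL2. The pairs were chosen for their small distance in experiment 1, so this comparison cannot tell whether the likeness itself differed. Among the factors themselves the smallest distance over experiment 1 was that of TBX15 with PRRX1 (0.42), beside SDs of 0.62 and 0.757 for these genes. Over experiment 2 their distance was 0.463, and the smallest was that of ALX4 with TWIST2 (0.256).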

How the data were processed

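The authors deposited 1 table of TPM per gene for each experiment. Per the submitters' processing notes, which assign no roles, the tools were Cuffdiff 2.2.1.3, Cufflinks 2.2.1.2 and TopHat2 2.1.1. No coordinates are printed, since the sources used here do not give the genome build. The annotation and the handling of reads that match several genes are likewise not given. Columns were matched to samples by title.

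Log2(TPM + 1) was fitted with limma 3.58.1 (R 4.3.3) with 1 mean per group, jointly for the libraries of each experiment, and with trend and robust variances. Genes needed 1 TPM in at least 3 (experiment 1) or 2 (experiment 2) libraries. Benjamini-Hochberg adjustment of two-sided p-values ran over all 13804 or 14915 genes tested. Balance between related factors was tested by exact permutation over libraries. The limma and permutation steps were tested on simulated data. No library pair was near-identical.

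The 10 factors and the list of 105 others were chosen with earlier results of these data known. Other factors were named by a rule: in 5 comparisons, the 2 genes highest and the 2 lowest by log2 fold change, among those called with at least 5 TPM in the higher group. The nearest patterns were the 2 closest genes per factor. Of the genes these rules name, 2 are not reported here. TWIST3 was added after its values were seen.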

Additional observations from a re-analysis of the deposited data

How the results depend on the processing

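Of 87 called differences among 108 (9 factors in 12 comparisons), 68 stayed past the threshold in the same direction under each alternative that was run, and none of the 87 changed direction. The shares of all genes called in each comparison are given above. The share of their calls that stayed under every alternative is not given here, so these counts cannot be read as particular to the factors. The alternatives changed the scaling (quantile normalization or median-of-ratios), the filter (none, or 5 TPM), the pseudocount (0.1), the variance model (no trend and no robust setting), the design (a replicate block, or only the groups compared) or left out 1 library. In experiment 1, 13804 of the 13815 rows passed the filter, so removing it could hardly change a call there. Where a call was lost, the cause was not tested. Fits that leave a pulp stage with 1 library assume that it varies like the other groups. The 6 balance tests, for which no share over other gene pairs is given, passed under each alternative run for them. Among these, median-of-ratios scaling divides both genes of a library by the same factor, so it could change the ratios only through the pseudocount.

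The number of factors called for near rest against late growth pulp was 5, against 2 with no filter, 2 on only the groups compared, 3 after quantile normalization, and 3 to 6 when 1 library was left out. It was 3 without late growth replicate 1 or 2. Near rest against early growth had 6 called, and 2 on only the groups compared. Over all genes, near rest against late growth had 8.77% higher and 22.3% lower. Those shares were 3.29% and 7.74% with no filter, where all 23789 rows entered the adjustment, and 11.6% and 15.4% after quantile normalization. Shares for the fits of only the groups compared or with 1 library left out are not given here. Peripheral against central pulp had 5 (15.6% of all genes higher and 9.51% lower), and 3 with no trend and no robust setting (14.4% and 9.35%). With 1 library left out it had 3 to 6, and 3 without sheath replicate 3 or any central pulp replicate. Median-of-ratios scaling moved the median of all genes by -0.25 to 0.24 (log2) and quantile normalization by -0.14 to 0.18.

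Some differences that were not called changed sign. Under median-of-ratios scaling ALX4 was 0.0067 for late against early growth and -0.077 for peripheral against central pulp, TBX15 was 0.20 for sheath against peripheral pulp and 0.21 for near rest against early growth, TFAP2C 0.15 for near rest against late growth and TWIST2 0.12 for papilla against peripheral pulp. Quantile normalization gave -0.073 (ALX4, peripheral against central pulp), 0.099 (MSX1, papilla against sheath), 0.0069 (MSX2, papilla against central pulp), 0.13 and 0.13 (TBX15, the same comparisons) and 0.15 (TFAP2C). With 1 library left out, the range was -0.26 to 0.060 (ALX4, late against early growth), -0.18 to 0.19 (ALX4, peripheral against central pulp), -0.26 to 0.099 (MSX1, papilla against sheath), -0.093 to 0.31 (MSX2, near rest against late growth), -0.16 to 0.10 (TBX15, sheath against peripheral pulp), -0.44 to 0.28 (TBX15, near rest against early growth), -0.19 to 0.12 (TFAP2C, near rest against late growth), -0.082 to 0.017 (TWIST2, papilla against peripheral pulp) and -0.0013 to 0.18 (TWIST2, near rest against late growth).

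Whether replicate numbers pair the libraries could not be settled. Deviations of same-numbered libraries correlated at -0.085 to 0.14 over 18 pairs in experiment 1 and -0.040 to 0.11 over 12 in experiment 2. In experiment 1, 7 of 12 libraries correlated best with their own number, and in experiment 2, 3 of 9. With 2 libraries per pulp stage the deviations of replicates 1 and 2 mirror each other, so those 12 pairs are not independent. With the replicate block, 46 in place of 45 differences were called in experiment 1 and 40 in place of 42 in experiment 2. The shares of all genes called fell in experiment 2 as well, such as from 22.3% to 15.6% lower near rest than at late growth. Depth is unknown, so the precision of low values, such as MSX1 in the papilla or TFAP2C in the sheath, rests on the replicates alone.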

Other observations

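TWIST3, a bHLH relative of TWIST1 and TWIST2 that is annotated in the chicken, was not among the 10 genes and was looked at after its values were seen. It was at 70.5, 63.4 and 50.5 TPM in the papilla of growing follicles, 10.6, 8.20 and 9.94 TPM in the sheath, 36.7, 93.1 and 69.4 TPM in peripheral pulp and 44.9, 24.6 and 41.7 TPM in central pulp. The sheath was lowest, without overlap with any other part (papilla over sheath 2.56 ± 0.31 (SE), limma adjusted p = 9.7e-05). In experiment 2 TWIST3 was at 45.0 and 53.9 TPM in early growth pulp, 36.4 and 33.8 TPM in late growth, 8.91 and 16.3 TPM near rest and 139.7, 155 and 141 TPM in the resting apical papilla. All groups were separate there by library values, but late against early growth was not called (-0.48 ± 0.23, adjusted p = 0.11). The resting papilla exceeded near resting pulp by 3.48 ± 0.21 (adjusted p = 6.6e-06), and near rest was below early growth by -1.94 ± 0.23 (adjusted p = 2.3e-04). How reads shared between TWIST genes were assigned is not given in the sources used here.

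TBX4 was listed at 0 in all 3 sheath libraries of experiment 1 and in all 7 libraries of late growth, near resting and resting papilla tissue, while early growth pulp held 64.8 and 66.6 TPM, peripheral pulp 48.1 ± 7.13 TPM and central pulp 36.9 ± 3.67 TPM (SD, n = 3). EYA2 was highest and EYA1 lowest in early growth pulp. EYA2 was at 74.0 TPM in early growth pulp, 2.15 TPM at late growth and 0.036 TPM near rest, and EYA1 at 0.0062, 16.9 and 13.1 TPM. These genes were singled out after their values were seen.

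The 9 detected factors summed to 2265 to 2466 TPM in the growing papilla, 729 to 768 TPM in the sheath, 1804 to 1950 TPM in peripheral pulp and 1480 to 1679 TPM in central pulp, with no overlap between the parts. PRRX1 made up most of that sum in the papilla and also in the sheath. In experiment 2 the sums were 1419 and 1526 TPM in early growth pulp, 2583 and 2546 TPM at late growth and 1115 and 1546 TPM near rest. The resting papilla held 2635, 2806 and 2703 TPM. The near resting sums lay on either side of those of early growth. PRRX1 again made up most of the sum in late growth pulp and in the resting papilla.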
